A study of Mus musculus with 7 samples.

Results

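Mechanosensitive and stretch-linked ion channels were followed through the lens epithelium of mice that lack SPARC (KO, SPARC-null) and of their wild-type littermates (WT). The set was named as 8 genes, Piezo1, Piezo2, Trpv4, Trpm3, Trpm7, Trpc1, Pkd2 and Kcnk2, and every probe set whose only gene symbol in the platform annotation was one of these was taken. This gave 17 of 45037 probe sets, for 7 of the 8 genes. No probe set carried Pkd2 as its only symbol, so Pkd2 was not analysed here. The set was drawn up after Piezo2 had been seen higher in KO lenses, so KO against WT at these probe sets is described and supports nothing by itself. The animals were 28 days old, of 1 litter and on a C57Bl/6 background. The KO group held 4 lenses of 3 SPARC-null animals (1L and 1R of animal 1, 4L and 7L) and the WT group 3 lenses of 3 wild-type animals (2L, 5L and 6L). Animal 7 was male and the others female. Epithelium was cut from stained cryosections by laser capture. Each lens gave 1 Affymetrix array, after 2 rounds of RNA amplification. The animal was the unit of replication, with 1L and 1R averaged, so n = 3 in each group.

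A mechanically gated channel turns tension in the cell membrane into a flow of ions. The Piezo proteins form large trimeric cation channels that open directly under membrane tension, Piezo1 in red cells, vessels and many epithelia, Piezo2 best known in touch and proprioceptive neurons and Merkel cells. Members of the TRP family (Trpv4, Trpm3, Trpm7, Trpc1) let calcium and other cations in, and for several of them the route from stretch to opening is indirect or debated. Kcnk2 (TREK-1) is a potassium channel of the two-pore-domain family that opens with stretch. In isolated pig and mouse lenses, TRPV4 in the epithelium answers swelling by opening connexin hemichannels and raising sodium pump activity, and human TRPM3 variants have been tied to inherited cataract.

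Trpm3 has a second product, which is why a sequence is shown for it. The miRNA miR-204 lies inside Trpm3 on mouse chromosome 19, on the same strand, and its relative miR-211 lies inside Trpm1 on chromosome 7. The array did not measure either miRNA. Both mature sequences are from RefSeq on GRCm38.p6, written 5′ to 3′ with the seed, bases 2 to 8, in capitals.
mmu-miR-204-5p (chr19:22750610-22750631, plus strand, within Trpm3): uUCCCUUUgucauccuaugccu
mmu-miR-211-5p (chr7:64205831-64205852, plus strand, within Trpm1): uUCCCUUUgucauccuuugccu
The sequences share their seed and 21 of 22 bases, and differ by A17U, counted from the 5′ end with the base of miR-204 first. In the same RefSeq set of mature mouse miRNAs, 3 had this seed.

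The deposited values are linear intensities, 1 per probe set and lens, scaled to the same trimmed mean of 500.003 or 500.004 in each array. As a gauge of background, the highest of 27 bacterial control probe sets lay between 24.3 and 45.5 over the 7 arrays, and a signal is called above background where it exceeded the highest control of its own array. The ratio of Gapdh signal at the 3′ to the 5′ end, lower where RNA is more intact, was 9.88 to 15.9 in KO lenses, and 9.06 and 15.9 in WT lenses 5L and 6L but 3.75 in WT lens 2L, which also had the lowest BioB control signal (848, against 1321 to 1907 in the others). Sparc itself read 8.14 to 70.5 in KO lenses and 27371 to 49972 in WT lenses at its brightest probe set. Of 12 lens epithelium markers, 11 were above background in all 7 lenses. Their summed signal was 130353 to 165202 in KO lenses and 109354 to 164812 in WT lenses. Lens fibre markers were also bright, at 146646 to 194396 in KO lenses and 128778 to 191880 in WT lenses. These sums therefore do not tell epithelium from fibre. Foxe3 was the marker near background, above it in 2 of 4 KO and 2 of 3 WT lenses. Markers of retina, pigment epithelium, cornea and muscle were also present in every lens, as given below.

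Of the 17 channel probe sets, 14 were above background in all 7 lenses. The other 3 were the weakest probe set of Trpm3, of Trpm7 and of Trpc1. Levels of different probe sets cannot be set against each other, since each has its own affinity. The plot of signals by lens gives all members.

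**Figure D1:**
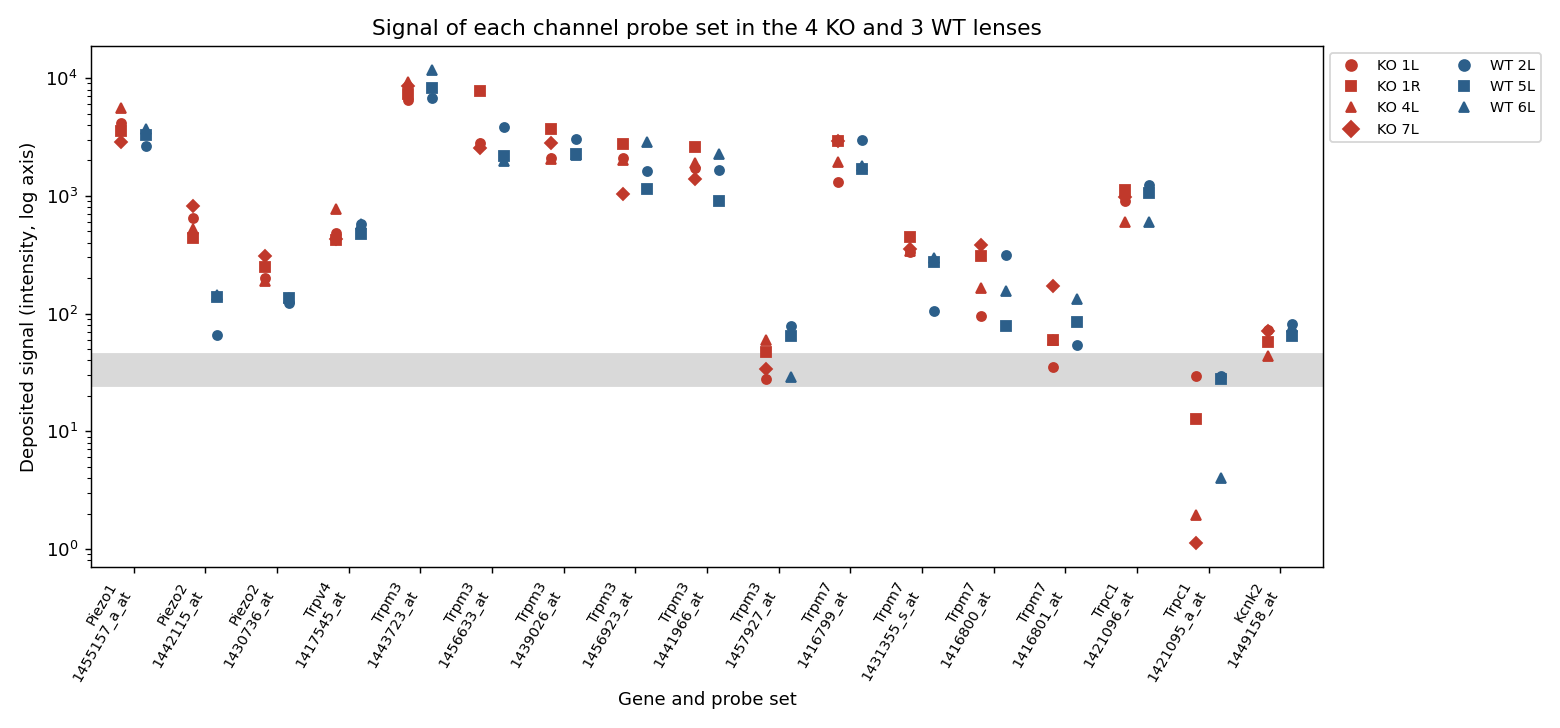
Deposited signal (intensity, log axis) of the 17 channel probe sets. Each point is 1 lens, KO lenses in red left of WT lenses in blue, and the grey band spans the highest bacterial controls of the 7 arrays (24.3 to 45.5). At Piezo2 probe set 1442115_at the KO lenses (440 to 827) stand clear of the WT lenses (66.1 to 144), while at most other probe sets the colours mix.

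Piezo2 was the member that differed most between the groups. At its brighter probe set (1442115_at) the signals were 652, 440, 523 and 827 in KO lenses 1L, 1R, 4L and 7L, against 66.1, 138 and 144 in WT lenses 2L, 5L and 6L. The groups did not overlap, the male lens 7L being highest and 2L lowest. In bulk tissue such as this, fewer cells of a type and less RNA per cell cannot be told apart. On the normalized log2 scale, log2(signal + 16) after quantile normalization, Piezo2 averaged 9.30 ± 0.33 in KO animals, against 7.07 ± 0.53 in WT animals (SD, n = 3). The difference was 2.23 (SE 0.34), or 4.68-fold on that scale. Every SE given here is the moderated SE of the limma fit described below, which draws each variance toward that of probe sets of similar level. It can be larger or smaller than the printed SDs would give. The Piezo2 difference of 2.23 is the value for which the set was chosen, so no p-value is given for it. Over all probe sets, 0.0311% had a difference at least as large in either direction. Nothing is read from that share either, since Piezo2 was chosen for its difference.

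The other Piezo2 probe set (1430736_at) showed a smaller gap. Its signals were 200.2, 247, 188 and 307 in KO lenses 1L, 1R, 4L and 7L, against 123, 135 and 134 in WT lenses 2L, 5L and 6L. KO lay above WT in every lens here too, with 7L again highest and 2L again lowest. The means were 7.95 ± 0.32 in KO animals, against 7.26 ± 0.10 in WT animals (SD, n = 3), a log2 difference of 0.69 (SE 0.31). Both probe sets were above background in all 7 lenses. They read the same RNA of the same lenses, so the second is no independent repeat of the first. The difference at the brighter probe set was 1.90 without WT animal 2, 2.04 without KO animal 7, and 2.32 to 2.39 without any one of the other animals.

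Piezo1, the other Piezo channel, was bright in every lens. Its single probe set gave 4156, 3550, 5531 and 2860 in KO lenses 1L, 1R, 4L and 7L, against 2664, 3289 and 3712 in WT lenses 2L, 5L and 6L. The groups overlapped, with the KO animals 4 and 7 at the top and near the bottom. Piezo1 averaged 11.93 ± 0.45 in KO animals, against 11.63 ± 0.24 in WT animals (SD, n = 3), a log2 difference of 0.30 (SE 0.25). Without KO animal 4 it was 0.07, and without KO animal 7 it was 0.53. The pair of Piezo genes thus had differences of 2.23 and 0.30 at their brightest probe sets. Whether these differ from each other was not tested.

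Trpm3, a calcium-permeable channel opened by the neurosteroid pregnenolone sulphate and by heat, was read by 6 probe sets, of which 5 were above background in all 7 lenses. At the brightest (1443723_at) the signals were 6465, 7321, 9291 and 8535 in KO lenses 1L, 1R, 4L and 7L, against 6725, 8184 and 11805 in WT lenses 2L, 5L and 6L. The groups overlapped, and the means were 13.00 ± 0.23 in KO animals, against 13.07 ± 0.28 in WT animals (SD, n = 3). The log2 difference was -0.07 (SE 0.21). Over all 6 probe sets the differences ran from -0.35 to 0.32, with 4 above and 2 below 0. This split has no firm direction, since median centring of the arrays turned 2 more below 0, and the signals as deposited turned 1. Leaving out single animals turned the sign at 4 of the 6.

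At one Trpm3 probe set (1456633_at) a single lens lay far above the rest. It read 2828, 7700, 2748 and 2547 in KO lenses 1L, 1R, 4L and 7L, against 3818, 2188 and 1968 in WT lenses 2L, 5L and 6L. The highest was 1R, the right eye of KO animal 1, followed by WT lens 2L, while the left eye of KO animal 1 lay among the rest. The log2 difference of 0.32 (SE 0.32) was 0.08 with the left lens of animal 1 only, 0.55 with the right lens only and 0.04 without the animal. It was 0.63 without WT animal 2, 0.49 without KO animal 7, 0.19 without WT animal 5 and 0.13 without WT animal 6.

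Trpm7, a channel for magnesium, zinc and calcium that carries its own kinase domain, was read by 4 probe sets that gave different pictures. The brightest (1416799_at) read 1302, 2897, 1943 and 2897 in KO lenses 1L, 1R, 4L and 7L, against 2993, 1684 and 1791 in WT lenses 2L, 5L and 6L. Here the highest lens of all was the WT lens 2L, and the log2 difference was 0.10 (SE 0.27), with its sign turned by median centring. It ran from -0.08 without KO animal 7 to 0.37 without WT animal 2. The second (1431355_s_at) read 336, 447, 343 and 351 in KO lenses, against 105, 272 and 295 in WT lenses 2L, 5L and 6L. All KO lenses lay above all WT lenses, at 8.55 ± 0.07 in KO animals, against 7.85 ± 0.77 in WT animals (SD, n = 3). The wide WT spread came from lens 2L alone, and the log2 difference of 0.70 (SE 0.38) was 0.25 without that animal. By its suffix, this probe set can also match transcripts other than those of its gene. The remaining Trpm7 probe sets differed by 0.42 (SE 0.48, at 1416800_at) and by -0.20 (SE 0.50, at 1416801_at). With single animals left out, the value at 1416800_at ran from -0.01 without WT animal 5 to 0.82 without WT animal 2, and was 0.05 without KO animal 7. At 1416801_at it ran from -0.68 without KO animal 7 to 0.13 without KO animal 1, with the sign also turned without WT animal 6 (0.07).

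Trpv4, the channel that the lens epithelium uses to sense swelling, was nearly level. Its probe set read 480, 425, 767 and 426 in KO lenses 1L, 1R, 4L and 7L, against 571, 470 and 574 in WT lenses 2L, 5L and 6L. KO animal 4 was highest and the other KO lenses lay near or below the WT lenses. Means were 9.09 ± 0.49 in KO animals, against 9.11 ± 0.14 in WT animals (SD, n = 3), a log2 difference of -0.02 (SE 0.29). Without KO animal 4 it was -0.30.

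Trpc1, a subunit of receptor-operated and store-operated cation channels, read 895, 1116, 599 and 982 in KO lenses 1L, 1R, 4L and 7L, against 1245, 1049 and 600 in WT lenses 2L, 5L and 6L. One animal of each group, KO 4 and WT 6, was low, and the groups overlapped. The log2 difference was -0.13 (SE 0.30), and it ran from -0.41 without WT animal 6 to 0.09 without KO animal 4. The other Trpc1 probe set was above background in 0 of 4 KO and 2 of 3 WT lenses, so its difference of -0.68 (SE 0.41) is not resolved.

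Kcnk2 gave 72.5, 56.8, 43.7 and 71.7 in KO lenses 1L, 1R, 4L and 7L, against 81.8, 64.8 and 76.4 in WT lenses 2L, 5L and 6L. These were above background in all 7 lenses but close to it. Means were 6.19 ± 0.28 in KO animals, against 6.54 ± 0.14 in WT animals (SD, n = 3), a log2 difference of -0.35 (SE 0.36).

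**Figure D2:**
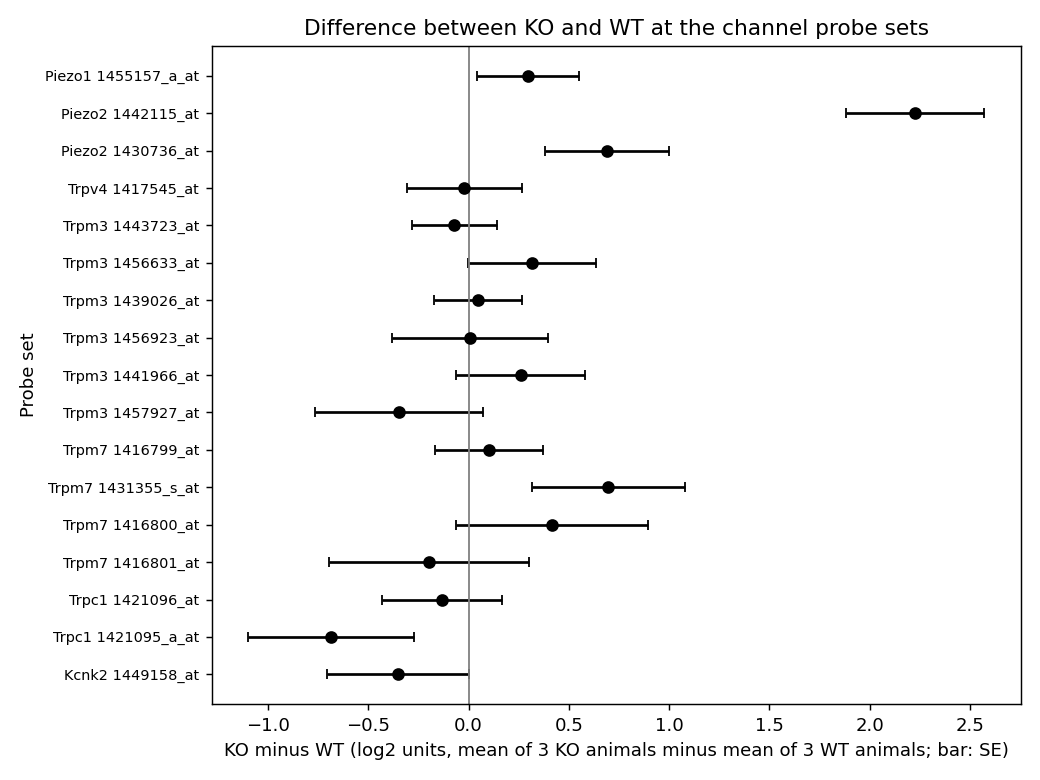
KO minus WT difference at each channel probe set (log2 units, horizontal axis), with bars of 1 moderated SE of the limma fit (n = 3 animals in each group). Piezo2 probe set 1442115_at lies at 2.23, and the 15 probe sets of other genes lie between -0.68 and 0.70.

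KO and WT were fitted over all 45037 probe sets with limma, with Benjamini-Hochberg adjustment over the whole table. Of the 17 channel probe sets 0 passed an adjusted p of 0.05, where 3 of all probe sets (0.00666%) did. These 3 included 1416589_at and 1448392_at of Sparc, the deleted gene. At an unadjusted p under 0.05 there were 0 of the 15 probe sets of genes other than Piezo2, against 4.06% of all probe sets. The limma adjusted p of those 15 was 0.99988 throughout. All 4 KO lenses lay above all 3 WT lenses at 3 of 17 (both of Piezo2 and 1 of Trpm7), against 2.56% of all probe sets, and below them at 0 of 17, against 2.76%. A higher mean in KO was seen at 10 of 17, against 48.4% of all probe sets. Since the set was chosen on this contrast, nothing is read from these counts. The median difference over the 17 was 0.05, and over all probe sets it was -0.01. Of the 15 probe sets of other genes, 13 differed by less than 0.5 in size, with SEs of 0.21 to 0.50. Changes of a size near those SEs were not detectable here, and changes of several SEs could also miss the adjustment. Tacr3, described below, differed by 2.12 (SE 0.28), at a limma adjusted p of 0.229.

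The eyes of KO animal 1 gave a comparison that the choice of genes did not use. Its right and left lens differed by more than KO and WT did at 12 of 17 channel probe sets, and at 68.5% of all probe sets. The right lens was the higher one at 12 of 17 channel probe sets. Trpm3 and Trpm7 lay the same way between these eyes and are singled out for that, so nothing is read from their count. At all 10 probe sets of Trpm3 and Trpm7 the right lens was higher, by 0.21 to 1.55 on the log2 scale with a median of 0.55, while over all probe sets 49.6% were higher in the right lens and the median was -0.01. The widest gaps were at Trpm7 (1.55 and 1.14) and at Trpm3 probe set 1456633_at (1.42). Probe sets of 1 gene read the same RNA, so they are no independent repeats. Other TRPM genes did not share a direction. The right minus left value was 0.57, 0.86 and 0.21 at Trpm1, Trpm2 and Trpm6. It was -0.79, -0.87 and -0.97 at Trpm4, Trpm5 and Trpm8, of which Trpm8 was above background in no lens. Piezo1, Trpv4 and Kcnk2 were lower in the right lens by 0.21, 0.17 and 0.33. Piezo2 was lower by 0.56 at the brighter probe set and higher by 0.28 at the other. Trpc1 was higher by 0.31 at the brighter probe set and lower by 0.69 at the other. Only at Piezo1, at both Piezo2 probe sets, at 1 of Trpm7 and at Kcnk2 was the gap between the eyes smaller than that between KO and WT. With 1 animal having both eyes measured there is no test, and eye, array and dissection cannot be told apart. The Gapdh 3′ to 5′ ratio was 15.9 in 1R and 12.7 in 1L, and the beta-actin ratio was 15.1 in 1R and 19.1 in 1L. Marker lists moved between these eyes too, with a higher mean in 1R for 9 of 13. Measured as the mean deviation of a list's genes from their means over the 7 lenses, lens fibre markers stood at 0.19 in 1R and -0.37 in 1L, lens epithelium markers at 0.10 in 1R and -0.19 in 1L, and surface and corneal epithelium markers at 0.66 in 1R and 0.01 in 1L. Pigment epithelium markers stood at -0.08 in 1R and -0.61 in 1L. The other way lay photoreceptor markers, at -0.43 in 1R and 0.40 in 1L, and muscle markers, at 0.05 in 1R and 0.67 in 1L. The part of RNA integrity and of these tissues in the gaps was not tested.

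**Figure D3:**
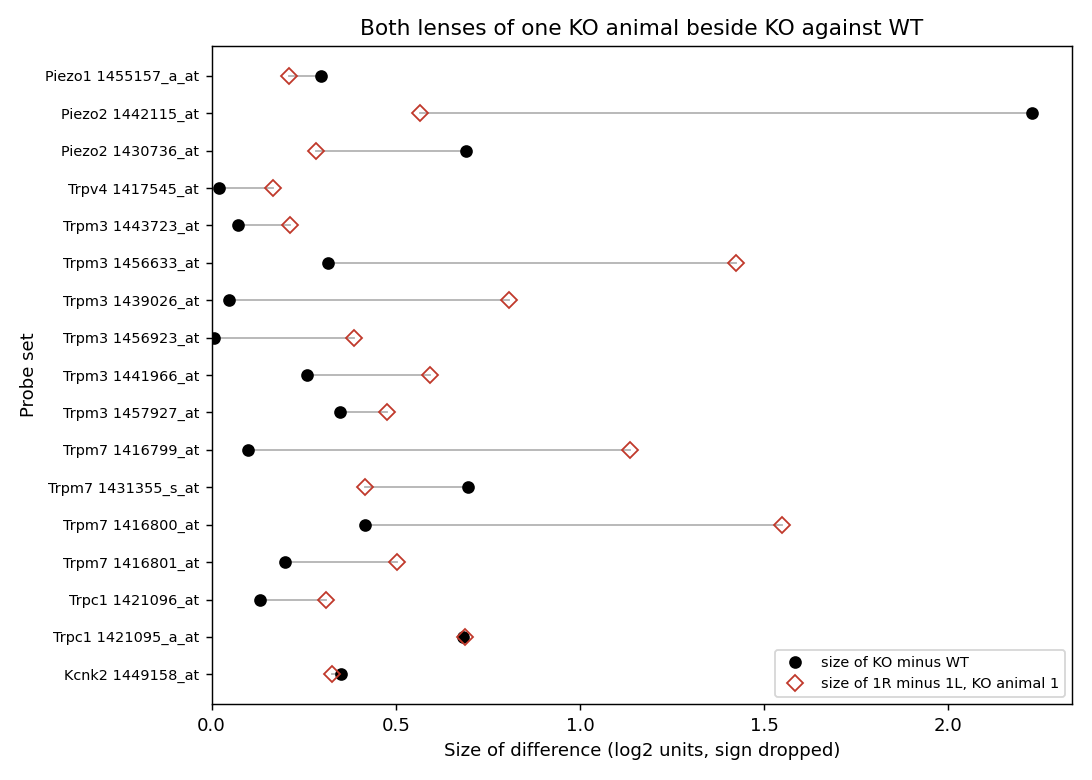
Size of the log2 difference with its sign dropped (horizontal axis) at each channel probe set, as filled circles for KO against WT and open diamonds for the right against the left lens of KO animal 1. The diamond lies to the right at 12 of 17 probe sets, and Piezo2 probe set 1442115_at has the widest reverse gap (0.56 against 2.23).

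The genes whose pattern over the 7 lenses lay nearest to that of the brighter Piezo2 probe set were sought among 19435 probe sets with 1 symbol and a level above the median. Likeness was the mean absolute difference, over the 7 lenses, between the deviations of both genes from their own means. The nearest were Tacr3, the neurokinin B receptor (0.28 log2 units), Mllt10, a chromatin-associated protein (0.29), and Socs3, a feedback inhibitor of cytokine signalling (0.30). Pcdh9, a protocadherin (0.32), and Serping1, the C1 inhibitor of complement (0.37), followed. Tacr3 read 1485, 1396, 2074 and 2849 in KO lenses 1L, 1R, 4L and 7L, against 453, 387 and 542 in WT lenses 2L, 5L and 6L. As with Piezo2, 7L was highest among KO lenses and 1R lowest. Among WT lenses Tacr3 was lowest in 5L and Piezo2 in 2L. KO minus WT was 2.12 (SE 0.28) for Tacr3, 1.61 (SE 0.35) for Mllt10, 2.31 (SE 0.40) for Socs3, 1.70 (SE 0.28) for Pcdh9 and 1.50 (SE 0.26) for Serping1. A gene near Piezo2 by this measure has a similar gap between the groups by construction, and its lenses tend to a similar order within a group.

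**Figure D4:**
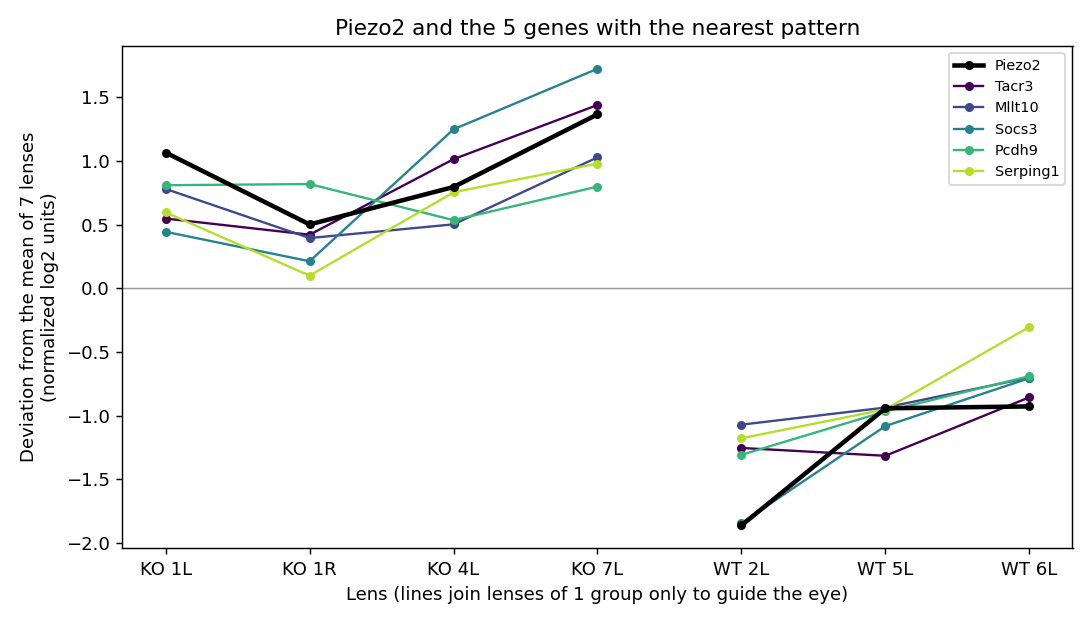
Deviation from the mean of the 7 lenses (normalized log2 units, vertical axis) for Piezo2 in black and the 5 genes nearest to it, KO lenses left of WT lenses. Piezo2 runs through 1.07, 0.50, 0.80 and 1.37 in the KO lenses 1L, 1R, 4L and 7L, and -1.86, -0.94 and -0.93 in the WT lenses 2L, 5L and 6L.

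Marker lists of other tissues are given beside Piezo2, most with a higher and some with a lower median in KO. Over all probe sets, 48.4% had a higher mean in KO, which is the share to set beside the counts of higher genes in every list below. Nothing is read from those counts. Of 10 measured markers of retinal bipolar cells, interneurons of the retina, 10 had a higher mean in KO, at a median of 0.71 on the log2 scale. Their summed signal was 10223 to 12805 in KO lenses and 5093 to 8653 in WT lenses, and 9 of 10 were above background in all 7 lenses. Tacr3 and Neurod4 are among them and had been known as higher in KO. Without both, the median was 0.58 and the sums were 6338 to 10261 in KO lenses and 4115 to 7663 in WT lenses, which overlap. The 9 markers of ganglion and amacrine cells had a median of 0.94, with 8 higher, and sums of 7495 to 11685 in KO lenses and 6197 to 9365 in WT lenses. That median was 0.46 when the probe sets of each gene were averaged. Pax6 is both in this list and among the lens epithelium markers. Pou4f1 and Isl1, which are also made in touch neurons, differed by 1.28 (SE 0.35) and 0.83 (SE 0.59).

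Piezo2 is best known from sensory neurons and Merkel cells, so their markers were read as well. This list shares Isl1 with the bipolar list and Pou4f1 with the ganglion and amacrine list, so it is not separate from them. Of 10 measured, 8 had a higher mean in KO (median 0.38), with sums of 1786 to 2764 in KO lenses and 1005 to 1813 in WT lenses. Without KO animal 7 this median was 0.24. Atoh1, the factor that specifies Merkel cells, and Scn10a, a sodium channel of sensory neurons, were above background in 0 of 7 lenses, and 4 of 10 were above it in all 7. Müller glia and astrocyte markers had a median of 0.39, 6 of 8 being higher, with sums of 53671 to 62363 in KO lenses and 47844 to 60845 in WT lenses. Among them Gfap, an intermediate filament of reactive glia, differed by 1.47 (SE 0.33).

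Macrophage and leukocyte markers were higher in KO for 11 of 12 genes (median 0.49), with sums of 1961 to 3165 in KO lenses and 1099 to 1801 in WT lenses, and Aif1 was above background in none. Blood and endothelial markers were higher for 9 of 10 (median 0.28, or 0.55 without WT animal 5), with sums of 1432 to 1594 in KO lenses and 811 to 1224 in WT lenses, and Pecam1 was above background in none. Photoreceptor markers, bright in every lens, ran from 49858 to 78777 in KO lenses and 43107 to 84609 in WT lenses (median -0.17, 8 of 10 lower, turned to 0.04 without WT animal 2 and to 0.07 without WT animal 5). Those of pigment epithelium and melanocytes had a median of 0.29 (5 of 10 higher) and sums of 29213 to 57633 in KO lenses and 28813 to 56037 in WT lenses. Their median was -0.01 without KO animal 7, 0.04 without WT animal 6 and 0.54 without KO animal 1. Markers of ciliary and iris epithelium had a median of 0.49 (5 of 8 higher), with sums of 4527 to 7524 in KO lenses and 5181 to 6456 in WT lenses. This median was 0.25 without WT animal 6, and 0.15 when the probe sets of each gene were averaged. Those of surface and corneal epithelium had a median of -0.93 (8 of 9 lower), with sums of 7344 to 19903 in KO lenses and 12799 to 22514 in WT lenses. That value was -0.42 without KO animal 7, -0.54 without KO animal 4 and -1.45 without KO animal 1. The median of the muscle markers was 0.02 (5 of 9 higher), and median centring turned it to -0.03, with sums of 32015 to 60010 in KO lenses and 26789 to 68014 in WT lenses. With single animals left out the muscle median ran from -0.39 without WT animal 6 to 0.46 without WT animal 2. Lens fibre markers had a median of -0.14 (7 of 9 lower, and -0.02 without WT animal 2), with sums of 146646 to 194396 in KO lenses and 128778 to 191880 in WT lenses. No gene of these lists passed the limma adjustment. An unadjusted p under 0.05, in either direction, was reached by 27 of the 123 marker genes, against 4.06% of all probe sets. The lists were chosen with earlier results of these data known, so nothing is read from this count. The part of these tissues in the Piezo2 values was not tested.

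**Figure D5:**
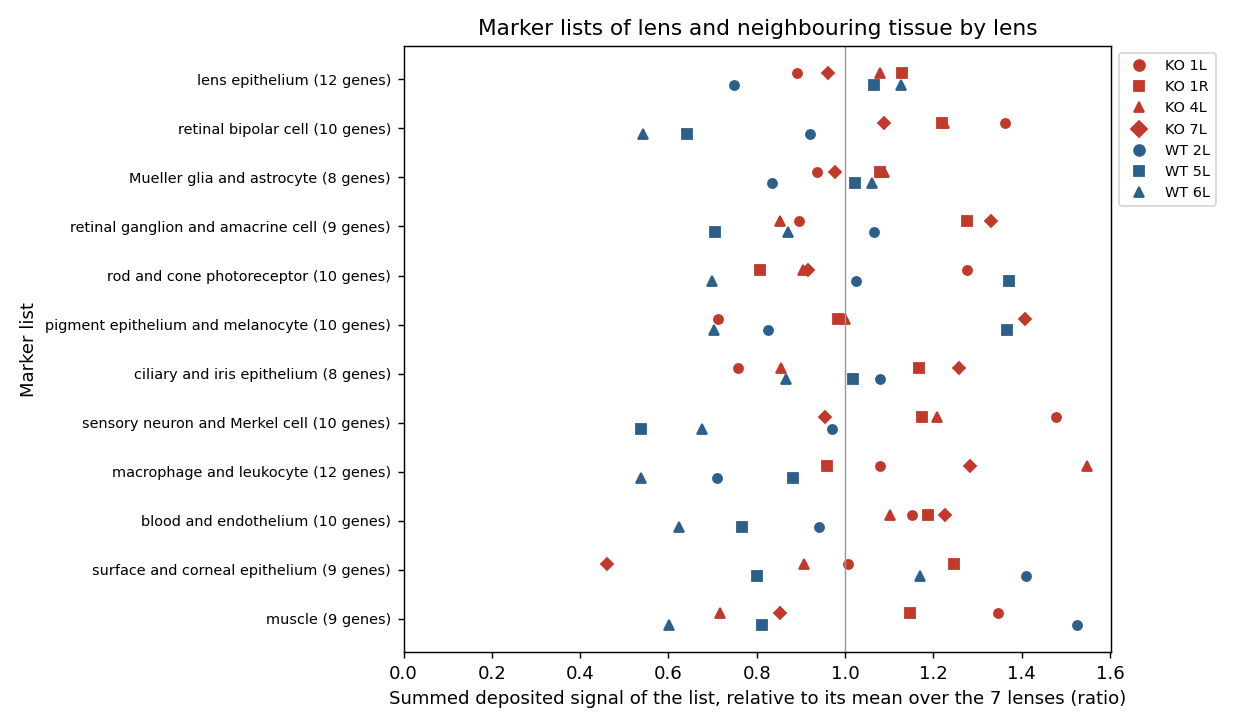
Summed deposited signal of each marker list except that of lens fibre, divided by its mean over the 7 lenses (horizontal axis, ratio). There is 1 point per lens, KO in red above WT in blue. The KO and WT lenses separate at the retinal bipolar, macrophage and leukocyte, and blood and endothelium lists, and mix at the others. The bipolar list includes Tacr3 and Neurod4, without which its lenses overlap.

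No relative of the members passed the limma adjustment, where 3 of all 45037 probe sets did. The counts of higher and lower genes, here and in the lists that follow, stand beside 48.4% of all probe sets with a higher mean in KO. Of 20 other TRP channels measured, 14 had a higher and 6 a lower mean in KO, and the median log2 difference was 0.19, against -0.01 over all probe sets. It was 0.08 when the probe sets of each gene were averaged. An unadjusted p under 0.05 was reached by 0 of the 20, against 4.06% of all probe sets. Trpm1, the transduction channel of retinal ON bipolar cells and host of miR-211, read 659, 980, 1072 and 1535 in KO lenses 1L, 1R, 4L and 7L, against 984, 737 and 540 in WT lenses 2L, 5L and 6L. The groups overlapped at Trpm1, and the log2 difference was 0.58 (SE 0.29). Trpv2, a cation channel that also answers stretch, differed by 0.92 (SE 0.47), but was above background in 3 of 4 KO and 1 of 3 WT lenses. Trpv1, which works beside Trpv4 in the lens by answering shrinkage, was near background at 32.4 to 47.6 in KO lenses, against 25.3 to 40.5 in WT lenses (log2 difference -0.03, SE 0.33).

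Of 11 other two-pore-domain potassium channels, 3 had a higher and 8 a lower mean in KO. Their median was -0.10, or -0.22 without WT animal 2 and -0.04 without KO animal 1. Past the limma adjustment there were 0, and at an unadjusted p under 0.05 also 0, against 4.06% of all probe sets. Kcnk1 (TWIK-1), a leak channel, was the clearest of them in signal, at 1717 to 2679 in KO lenses, against 2268 to 2930 in WT lenses (log2 difference -0.26, SE 0.21). Kcnk7 differed by -0.98 (SE 0.48), but was above background in 0 of 4 KO and 2 of 3 WT lenses. The difference at Kcnk15 was -0.55 (SE 0.38), with 1 of 4 KO and 2 of 3 WT lenses above background.

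Of 20 further mechanosensitive channels and channel partners, 12 had a higher and 8 a lower mean (median 0.02, or -0.02 with median centring and 0.18 without KO animal 1). None passed the limma adjustment, and 2 had an unadjusted p under 0.05, both higher in KO, against 4.06% of all probe sets. Asic1, an acid-sensing channel of neurons, read 171, 83.1, 164 and 131 in KO lenses 1L, 1R, 4L and 7L, against 94.6, 36.2 and 44.7 in WT lenses 2L, 5L and 6L (log2 difference 1.06, SE 0.41). Pcdh15, a tip-link cadherin of hair cells that photoreceptors also make, differed by 1.11 (SE 0.49), with WT lens 6L alone far below the rest at 119.

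Genes that act with or after channel opening were read next. In the lens volume and pressure response, 7 of 15 genes had a higher and 8 a lower mean. Their median was -0.03, or 0.03 with the signals as deposited and 0.02 without KO animal 4. Past the limma adjustment there were 0, and at an unadjusted p under 0.05 also 0, against 4.06% of all probe sets. Gja1, the connexin 43 of the epithelium, was bright and level at 21778 to 27298 in KO lenses, against 16277 to 29296 in WT lenses (log2 difference 0.02, SE 0.17). The water channel Aqp1 differed by -0.49 (SE 0.25), Aqp5 by -0.23 (SE 0.22), and the kinase Fyn by 0.32 (SE 0.25). Among 16 genes of calcium entry and handling 7 were higher and 9 lower, with 0 past the limma adjustment and 2 at an unadjusted p under 0.05, against 4.06% of all probe sets. Their median of -0.04 has no firm sign, since it turned under 7 of 17 alternatives and was 0.09 without KO animal 4. The 2 genes at that p were Slc8a1, a sodium-calcium exchanger, at 195 to 422 in KO lenses, against 103 to 152 in WT lenses (log2 difference 1.05, SE 0.35), and Atp2b2, a plasma membrane calcium pump, at 182 to 287 in KO lenses, against 91.5 to 156 in WT lenses (0.86, SE 0.34). All KO lenses lay above all WT lenses at 3 of the 16, against 2.56% of all probe sets, namely at both of these and at Atp2b4, another calcium pump, which differed by 0.63 (SE 0.29). Atp2b4 was above background in 2 of 4 KO and 0 of 3 WT lenses. Of 16 stretch and YAP target genes, 3 were higher and 13 lower (median -0.11, or -0.05 without KO animal 1). Past the limma adjustment there were 0, and at an unadjusted p under 0.05 also 0, against 4.06% of all probe sets. Vgll3 differed by -0.61 (SE 0.34), Ankrd1 by -0.58 (SE 0.38) and Lats2 by 0.39 (SE 0.26).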

How the data were processed

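The authors deposited linear intensity values, 1 summary signal per probe set and lens. Per the labels' protocols, epithelium was taken by laser capture from stained cryosections, and RNA was amplified in 2 rounds and labelled with biotin. The sources used here do not give the software or background correction behind these summaries. Amplification of this kind favours the 3′ end of transcripts, so probe sets far from it can read low.

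Of 45101 probe sets, 64 controls were dropped and the other 45037 all entered the fit, however low. Signals were taken as log2(signal + 16) and quantile normalized, and both lenses of KO animal 1 were averaged. A log2 difference is KO minus WT on this scale. The fit used limma 3.58.1 in R 4.3.3 (lmFit, then eBayes with trend), with 3 animals a group. SEs are the moderated ones of this fit, so they do not follow from the printed SDs alone. P-values are two-sided and were adjusted by Benjamini-Hochberg over the whole table, at a threshold of 0.05. The code was tested on simulated data.

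Gene names came from the platform annotation, in which 34945 probe sets had 1 symbol. Where a listed gene had several probe sets, the one with the highest mean level stands for it. The members and gene lists were chosen with earlier results of these data known, so nothing is read from counts over them. From each list the rule took those with the smallest p or, for markers, the highest level, and some of these are described. Trpv1, and the markers given as above background in no lens, were named beside that rule. Alternatives were all 7 lenses as separate samples, 1L or 1R alone for animal 1, other scalings, a filter on low values, no trend, array weights, pseudocounts of 1 and 64, averaging the probe sets of each listed gene, an adjusted p of 0.1, and leaving out each animal.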

Additional observations from a re-analysis of the deposited data

Results flagged for a closer look

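Each of the 17 channel probe sets was checked for a KO lens far from the other 3. Trpm3 probe set 1456633_at was picked out: lens 1R lay at 12.92 on the normalized log2 scale, against 11.50 in the nearest KO lens, 1L of the same animal, and this gap made up 0.880 of the range of the KO lenses, above the critical value of 0.829 for 4 samples. For independent samples chance picks out about 1 in 20 such groups, and 1 of 17 was found. Here 1L and 1R share an animal, and probe sets of 1 gene read the same RNA. That rate is therefore only a rough guide.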

How the results depend on the processing

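The count of probe sets past the adjustment in limma stayed at 2 or 3 under all 17 alternatives, and at 2 to 3 when single animals were left out. In the main fit the calls included Sparc, the deleted gene, at 1416589_at and 1448392_at (limma adjusted p 3.4e-06 and 1.1e-05). The count is therefore no gauge of how firm other differences are. The Piezo2 difference of 2.23 ran from 1.88 with a pseudocount of 64 to 2.39 without WT animal 6, and over the animals left out in turn from 1.90 to 2.39. At the other Piezo2 probe set it ran from 0.51 to 0.82. For Piezo1 the range was 0.07 to 0.53 and for Kcnk2 -0.47 to -0.20, with the sign kept under every alternative run. The sign of the difference turned under 4 of 16 alternatives for Trpv4, 2 of 16 for the brightest Trpm3 probe set, 5 of 16 for the brightest of Trpm7 and 2 of 16 for the brighter of Trpc1, and the cause was not tested. The weaker Trpc1 probe set moved to -1.81 with a pseudocount of 1. Leaving Tacr3 and Neurod4 out of the bipolar list, an alternative chosen after seeing the data, gave a median of 0.58 in place of 0.71. With 3 animals a group and RNA amplified in 2 rounds, signals near the bacterial controls (Kcnk2, the weakest probe sets of Trpm3, Trpm7 and Trpc1) do not resolve a difference.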
